A study of Mus musculus with 12 samples.

Results

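Rbm3 and Cirbp are small RNA-binding proteins induced by mild cooling, and their transcripts were followed on every array of a study of mephedrone and ethanol in the mouse striatum. The probe sets were those whose single gene symbol in the platform annotation is Rbm3 or Cirbp, which gave 3 for Rbm3 and 1 for Cirbp, or 4 of 28853 probe sets and 2 of 19938 named genes. The genes were chosen by their measured log2 values in earlier results of these data, in which they stood high on the arrays of animals given mephedrone, in the contrast of all mephedrone arrays with all others and in that of the combination with ethanol. Their levels in the mephedrone comparisons are therefore given as a description and without a test.

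The study asked what RNA changes accompany reward learning under these drugs. Total RNA came from the anterior striata of adolescent male mice of the outbred Swiss CD-1 stock that had gone through a 10-day conditioned place preference procedure, in which an animal comes to associate one side of a box with a drug. Drugs were given 15 minutes ahead of placement on that side. The 4 groups of 3 arrays each received mephedrone with ethanol (called the combination), mephedrone alone, ethanol alone or saline, and all went through the same procedure. Mephedrone is a synthetic cathinone, a stimulant. The labels give no dose, hour of collection or array batch, and do not say whether each array held a separate animal, so the p-values rest on an array-to-array spread that may be partly technical.

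RBM3 and CIRBP (also called CIRP) each carry a single RNA recognition motif followed by a glycine-rich tail, and their transcripts accumulate when mammalian cells are cooled by a few degrees. In rodents both vary over the day with body temperature, CIRBP binds transcripts of clock genes such as Clock, and RBM3 has been linked to the rebuilding of synapses after cooling through the membrane protein RTN3. Heat shock genes driven by the factor HSF1 respond to temperature in the opposite direction.

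Each value is on the log2 scale and relative to the median of its probe set over the 12 arrays. The deposited table was centred in this way, so a value tells how high an array stands for that probe set and not how abundant the transcript is. Because a median of 12 values lies midway between the sixth and the seventh, the 6 higher and the 6 lower arrays of a single probe set lie equally far from 0 at their nearest points. A rough bracket of the level before centring can still be read from the rounding of the values, which for all 4 member probe sets was that of numbers between 8 and 16 on the log2 scale. The tissue label was checked in the same way: all 8 measured markers of striatal projection neurons had the rounding of numbers between 8 and 16. So did 6 of 6 oligodendrocyte, 6 of 6 astrocyte, 6 of 7 microglial, 5 of 7 endothelial and 3 of 6 cortical excitatory neuron markers, and these brackets do not rank one cell type against another. Of 10 choroid plexus markers 1 had that rounding and 2 that of numbers between 4 and 8, while the other 7 had no settled bracket. In bulk tissue, fewer cells of a type and less RNA per cell cannot be told apart.

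Rbm3 was highest in the combination, next in mephedrone alone, and lower in ethanol and saline. Averaged over its 3 probe sets it stood at 0.22, 0.30 and 0.36 on the combination arrays and at 0.11, 0.082 and 0.068 on the mephedrone arrays. It stood at -0.067, -0.37 and -0.24 on the ethanol arrays and at -0.28, -0.13 and -0.19 on the saline arrays. All 6 arrays given mephedrone were above all 6 without it, and all 3 combination arrays were above all 3 mephedrone arrays, while ethanol and saline overlapped. Of all genes 0.908% had the 6 mephedrone-treated arrays above the 6 others, and 4.88% had the combination arrays above those of mephedrone. The combination arrays also lay above the ethanol arrays, as in 6.44% of genes, and above the saline arrays, as in 11.7%. The mephedrone arrays lay above those of ethanol, as in 5.56% of genes, and above those of saline, as in 9.99%. The order of the group means, combination over mephedrone over saline over ethanol, was shared by 5.61% of genes. The group means were 0.29 ± 0.073 in the combination, 0.085 ± 0.019 with mephedrone, -0.23 ± 0.15 with ethanol and -0.20 ± 0.073 with saline (SD, n = 3 each). The ethanol group was the most spread and the mephedrone group the least.

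**Figure D1:**
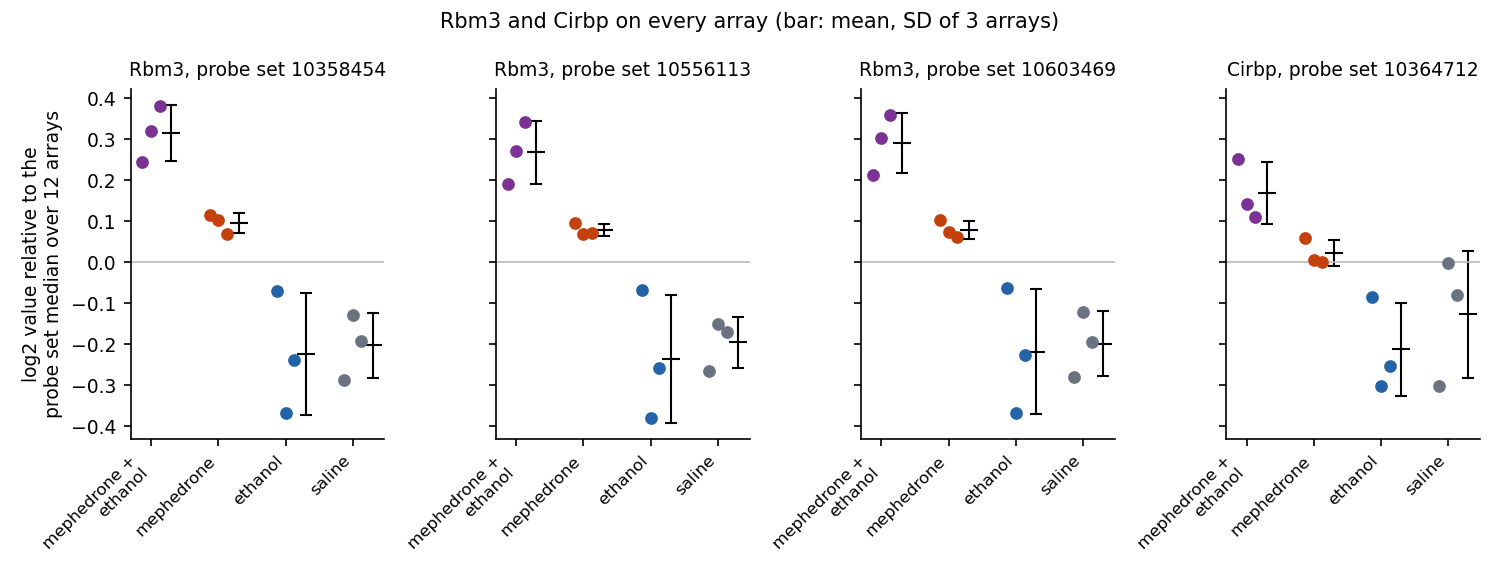
Each panel is a probe set, the vertical axis is its log2 value relative to its median over the 12 arrays, each point is an array and the black bar is the mean with the SD of 3 arrays. On all 4 probe sets the combination arrays lie highest, the mephedrone arrays next, and the ethanol and saline arrays overlap below 0.

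The 3 Rbm3 probe sets gave nearly the same reading. Their values on an array lay within 0.0078 to 0.054 of each other, and their pairwise Pearson r over the 12 arrays was 0.997 to 0.999. The annotation assigns the same 12 transcripts to all 3, and the RefSeq gene table lists a pseudogene named Rbm3-ps, so the 3 may read the same or near-identical transcripts and do not count as independent measurements. Probe set 10358454 read 0.24, 0.32 and 0.38 in the combination and 0.12, 0.10 and 0.070 with mephedrone. It read -0.070, -0.37 and -0.24 with ethanol and -0.29, -0.13 and -0.19 with saline. Group means of probe set 10556113 were 0.27 ± 0.077 in the combination, 0.079 ± 0.015 with mephedrone, -0.24 ± 0.16 with ethanol and -0.20 ± 0.062 with saline. Those of probe set 10603469 were 0.29 ± 0.073, 0.080 ± 0.022, -0.22 ± 0.15 and -0.20 ± 0.079 in the same order of groups (SD, n = 3 each). The mephedrone-treated arrays averaged 0.42 above the others on the first of these probe sets and 0.39 on each of the other two.

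Set against each other, the groups differed in Rbm3 by amounts that were larger than its within-group SD of 0.093 except between ethanol and saline. The mean of both mephedrone groups lay 0.40 above that of both groups without the drug on the log2 scale (SE 0.049), which is 1.32-fold on the linear scale. The combination lay 0.52 above ethanol, 0.49 above saline and 0.21 above mephedrone (SE 0.069 each). Mephedrone alone lay 0.31 above ethanol and 0.28 above saline. Ethanol differed from saline by -0.027, within the spread of either group with all arrays. That distance was -0.11 without ethanol replicate 1 and 0.046 without ethanol replicate 2. With all 19938 genes ordered from the highest to the lowest signed mephedrone difference, which puts genes lower with mephedrone last whatever their size, Rbm3 was number 13, and the 95th percentile was 0.12. At an adjusted p under 0.05, 0.0853% of genes were called higher in that contrast and Rbm3 was among them. The same contrast led to its choice, and nothing further is read from the call.

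Cirbp has a single probe set, 10364712, to which the annotation assigns 5 transcripts. Its RefSeq promoter is shown because it is the sequence from which this cold-inducible transcript starts, and because Sp1, a factor that binds GC boxes, has been linked to the cold response of the mouse gene. The stretch is chr10:80167589-80167888 on the plus strand of GRCm38.p6, from 250 bases before to 50 bases after the upstream one of 2 start sites in the RefSeq table. Capitals mark GC boxes (GGGCGG) and CCAAT boxes (CCAAT), on either strand, which do not overlap here. Whether any marked box is a site of the cold response was not tested.

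Cirbp promoter: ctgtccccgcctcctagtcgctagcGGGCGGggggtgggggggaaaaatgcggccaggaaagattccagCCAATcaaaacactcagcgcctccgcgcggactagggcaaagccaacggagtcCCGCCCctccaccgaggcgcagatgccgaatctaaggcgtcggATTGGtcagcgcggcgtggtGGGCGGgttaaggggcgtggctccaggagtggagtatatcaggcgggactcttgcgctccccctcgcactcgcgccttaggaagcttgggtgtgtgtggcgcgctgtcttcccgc

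A GC box was found 3 times, at -225 to -220 and -65 to -60 on the plus strand and at -128 to -123 on the minus strand, counted from the start site. At least 1 GC box was present in 35.7% of 32851 RefSeq promoter stretches of this length, and 10.7% had 3 or more. CCAAT was found at -181 to -177 on the plus strand and -85 to -81 on the minus strand. That motif was present in 37.4% of promoter stretches, and 11.7% had 2 or more matches. The E-box CACGTG, the site of the clock factors CLOCK and BMAL1, was not found in these 300 bases and was present in 7.2% of promoter stretches.

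Cirbp had the same order of group means as Rbm3, with smaller distances between mephedrone-treated and other groups. It stood at 0.25, 0.14 and 0.11 on the combination arrays and at 0.058, 0.0066 and 0.00091 on the mephedrone arrays. It stood at -0.085, -0.30 and -0.25 on the ethanol arrays and at -0.30, -0.00091 and -0.080 on the saline arrays. The 3 combination arrays were again above the 3 mephedrone arrays, as in 4.88% of genes, with a gap of 0.052. The mephedrone arrays were above those of saline, as in 9.99% of genes, by only 0.0018, since saline replicate 2 stood nearly level with mephedrone replicate 3. Group means were 0.17 ± 0.075 in the combination, 0.022 ± 0.032 with mephedrone, -0.21 ± 0.11 with ethanol and -0.13 ± 0.16 with saline (SD, n = 3 each).

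The mean of both mephedrone groups lay 0.27 above that of the others in Cirbp (SE 0.054), or 1.20-fold, which was number 58 of 19938 genes in the same signed order. The combination lay 0.38 above ethanol, 0.30 above saline and 0.15 above mephedrone (SE 0.077 each). Mephedrone alone lay 0.23 above ethanol and 0.15 above saline, and ethanol differed from saline by -0.086. The within-group SD of Cirbp was 0.10, and the distance between ethanol and saline was inside it with all arrays. That distance was -0.17 without saline replicate 1 and -0.022 without saline replicate 2. The distance between mephedrone and saline rested in part on saline replicate 1. Without that array it was 0.062, and without saline replicate 2 it was 0.21. Cirbp was not among the genes called in the contrast of all mephedrone arrays against all others. That contrast also led to its choice, and nothing is read from the missing call.

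The contrast of ethanol-treated with other arrays is arithmetically independent of the comparisons that led to the choice of the genes, and it was tested. Rbm3 averaged 0.09 higher on the 6 ethanol-treated arrays than on the 6 others (SE 0.049, limma adjusted p = 0.941), with an unadjusted 95% interval from -0.017 to 0.20. The difference was 0.050 without ethanol replicate 1 and 0.033 without both that array and combination replicate 3. For Cirbp the difference was 0.031 (SE 0.054, limma adjusted p = 0.958), with an interval from -0.088 to 0.15. Neither gene passed. In limma 0 of 19938 genes (0%) passed in this contrast, with 912 at an unadjusted p under 0.05. The sign of the Cirbp difference turned when saline replicate 1 or ethanol replicate 1 was left out (-0.013 and -0.0016).

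The interaction asks whether the mephedrone difference was of another size with ethanol than without it. It was 0.23 for Rbm3 (SE 0.097) and 0.23 for Cirbp (SE 0.11). This contrast contains that of the combination against ethanol, in which the genes had been noticed, so its estimates are given as a description and carry no p. In limma 0 of 19938 genes (0%) passed, with 705 at an unadjusted p under 0.05. The distance of the combination above mephedrone (0.21 in Rbm3 and 0.15 in Cirbp) stands beside a distance of -0.027 and -0.086 for ethanol against saline.

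**Figure D2:**
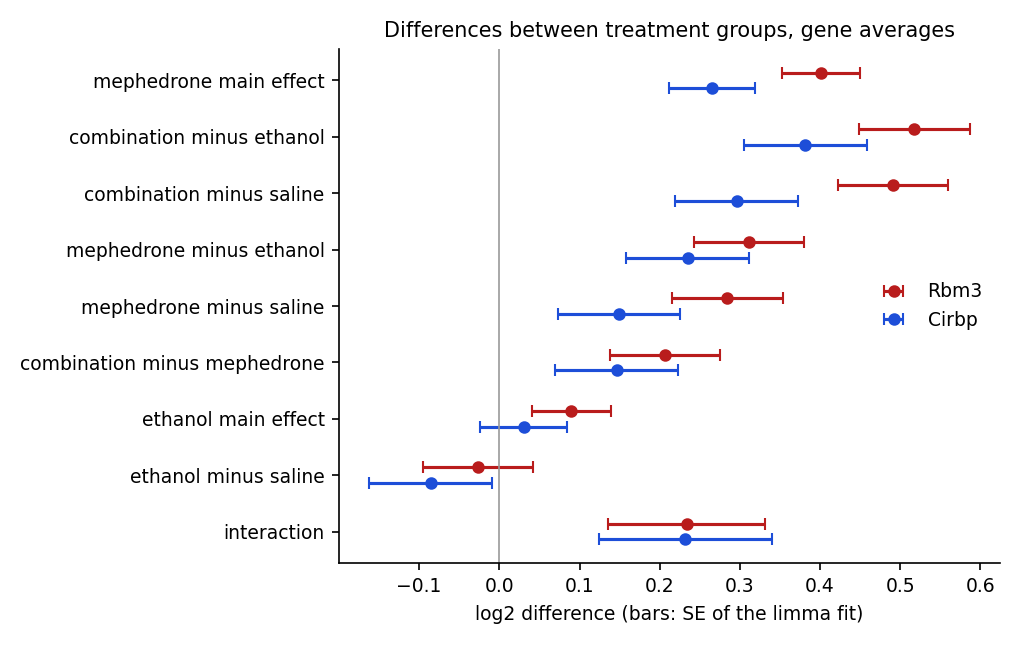
Log2 differences between treatment groups for the gene averages of Rbm3 (red) and Cirbp (blue), with bars for the SE of the limma fit to 12 arrays. Every contrast with a mephedrone-treated group first lies above 0, ethanol minus saline lies below it, and Rbm3 lies further from 0 than Cirbp in the first 6 contrasts shown.

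Over all 12 arrays Rbm3 and Cirbp ran closely together (Pearson r = 0.90, Spearman rho = 0.94, given as a description because the group levels led to their choice). The question that the choice did not settle is whether they also moved together among arrays of the same group. After removal of the group means the correlation was 0.61 (rho = 0.55, n = 12) and did not pass an exact two-sided permutation test within groups (p = 0.129 for r and 0.170 for rho, over 1296 arrangements). Both genes lay on the same side of their group mean on 9 of 12 arrays. The 3 exceptions were the combination arrays, where Rbm3 was lowest and Cirbp highest on replicate 1 and the reverse held on replicate 3. Without combination replicate 1 the correlation was 0.83, and without ethanol replicate 1 it was 0.37. The exact permutation p was 0.0139 in the first case and as high as 0.440 in other alternatives. Combination replicate 1 runs against the correlation, so nothing is read from the fit without it. Ethanol replicates 1 and 2 were the 2 arrays with the most extreme Rbm3 deviations from the group mean. Without both the correlation was 0.36 (n = 10), with a single ethanol array left.

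**Figure D3:**
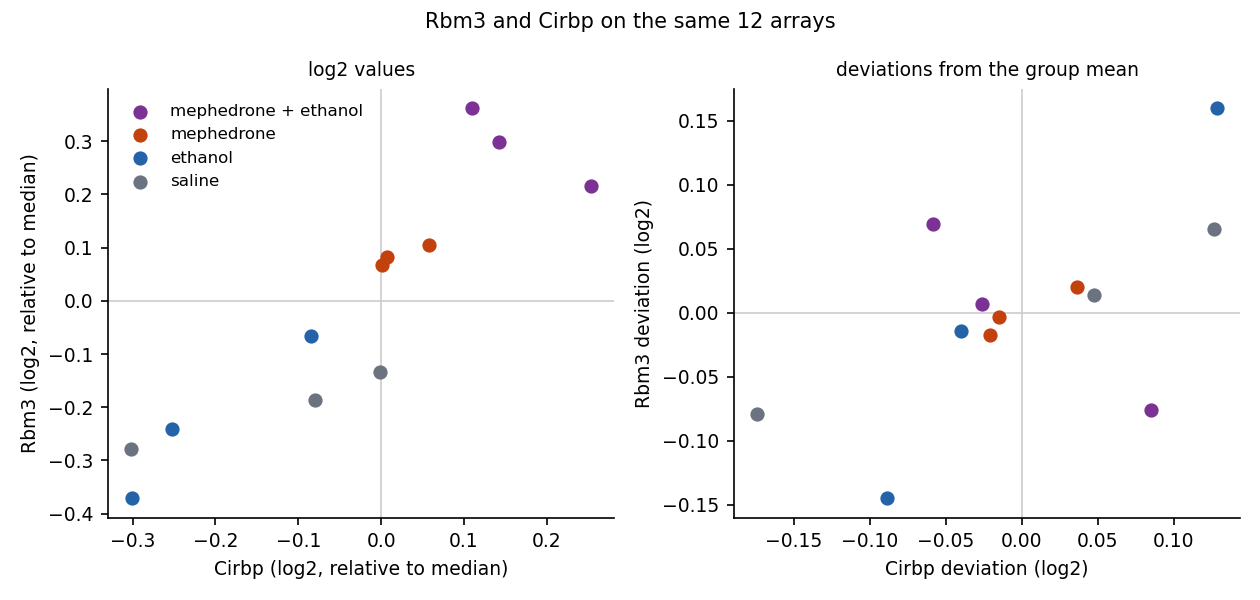
Rbm3 against Cirbp on the same 12 arrays, as log2 values relative to the median (left) and as deviations from the group mean (right), coloured by treatment. The groups line up along a diagonal on the left, and on the right 9 of 12 arrays fall in the quadrants where both genes deviate the same way.

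The arrays differed in markers of other cell types, some of which moved with Rbm3. Markers of cortical excitatory neurons (6 of 7 measured) had a list mean of -0.075 to 0.92 on the mephedrone-treated arrays and -0.58 to 0.41 on the others. The lowest of these means was on ethanol replicate 2 and the highest on combination replicate 3, which were also the lowest and the highest array for Rbm3. Cirbp was highest on combination replicate 1 (0.25), where the cortical mean was -0.075, and stood at 0.11 on combination replicate 3. With the cortical list mean as a covariate, added after the data were seen, the mephedrone difference was 0.36 for Rbm3 (SE 0.036) and 0.24 for Cirbp (SE 0.055). Choroid plexus markers, from the epithelium that makes cerebrospinal fluid (10 of 10 measured), had list means of -0.19 to 2.04 on the mephedrone-treated arrays and -0.14 to 1.20 on the others. With choroid plexus and striatal projection neuron means as covariates the difference was 0.38 for Rbm3 (SE 0.037) and 0.26 for Cirbp (SE 0.056), and that of the combination over mephedrone in Rbm3 was 0.13, against 0.21 without covariates. Without both arrays of the widest spread, ethanol replicate 1 and combination replicate 3, no member value moved by more than its within-group SD. Endothelial markers (7 of 7 measured) had list means of -0.12 to 0.053 on the mephedrone-treated arrays and -0.013 to 0.19 on the others, and 1 of the 7, the tight junction gene Cldn5, was called lower (-0.30, SE 0.044, limma adjusted p = 0.0333), as 0.0301% of all genes were. At an unadjusted p under 0.05, 5 of the 7 were lower, against 4.28% of all genes. The transporter gene Slco1a4 stood at 0.16 (SE 0.12). All 7 microglial markers were below 0 in the same contrast, where 53.2% of all genes were above 0, and 0 were called. Their list means were -0.11 to 0.023 on the mephedrone-treated arrays and -0.023 to 0.12 on the others. The part of endothelial and microglial markers in the Rbm3 and Cirbp levels was not tested.

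Of the genes known to act on Rbm3 and Cirbp or to depend on them, none was called in the same contrast of all mephedrone arrays against all others, in which 0.115% of all genes were called. The list of 16 covered inducers, splicing regulators and kinases, targets and receptors. Their median was 0.027, against 0.0038 over all genes, with 10 above and 6 below 0, against 53.2% of all genes above 0. At an unadjusted p under 0.05, 4 were higher and 1 lower, against 8.36% and 4.28% of all genes. Srpk1, a kinase of splicing factors, stood at -0.19 (SE 0.048, limma adjusted p = 0.129) and Sp1 at 0.11 (SE 0.029, limma adjusted p = 0.135). Sp1 averaged 0.040 ± 0.034 on the mephedrone-treated arrays and -0.070 ± 0.057 on the others (SD, n = 6 each). The 2 sets of arrays nearly met, at 0.00021 and -0.00021. Of all genes, 0.908% had the mephedrone-treated arrays above the others.

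Among inducers and splicing regulators, Ntrk2, the BDNF receptor through which RBM3 is induced in mouse neurons, had -0.080 (SE 0.042) and Bdnf itself 0.0061 (SE 0.034). Clk4 and Clk1, kinases of splicing factors whose activity depends on temperature, had 0.096 (SE 0.042) and 0.060 (SE 0.051). Hnrnph1, which regulates the splicing of RBM3 in human cells, had 0.056 (SE 0.033). Among targets, Rtn3 had 0.020 (SE 0.030) and Txn1, which encodes thioredoxin, 0.065 (SE 0.038). The highest values of the list were those of Rpa2 at 0.13 (SE 0.038, limma adjusted p = 0.180) and Atr at 0.12 (SE 0.037, limma adjusted p = 0.181). Tlr4, a receptor for CIRBP outside cells, had -0.038 (SE 0.030). None of these passed.

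The structural relatives also had no call. The list of related RNA-recognition-motif proteins, which holds hnRNP proteins of the A, B and D kind, RBMX, TRA2 and the FET proteins, had 10 of 14 members measured, with 8 above 0 and a median of 0.079. Its 2 smallest p-values were those of Hnrnpab at 0.13 (SE 0.032, limma adjusted p = 0.120) and Ewsr1 at 0.11 (SE 0.028, limma adjusted p = 0.128). At an unadjusted p under 0.05, 5 of the 10 were higher, against 8.36% of all genes. All 10 were below 0 in the interaction, where 44.5% of all genes were above 0, with a median of -0.084 and 0 called. Of the other lists, 12 of 16 regulators and partners, 20 of 29 other RBM genes and 15 of 17 heat shock genes were below 0 there. Cold shock domain proteins leaned the other way, with 5 above and 2 below 0, and clock genes had 8 above and 10 below.

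The 29 measured of 32 other genes named RBM had a median of 0.032, with 8 higher and 0 lower at an unadjusted p under 0.05, against 8.36% and 4.28% of all genes, and 0 called. The 2 with the smallest p were Rbm8a, a part of the exon junction complex, at 0.14 (SE 0.027, limma adjusted p = 0.0699) and Rbm7, of the nuclear exosome targeting complex, at 0.12 (SE 0.036, limma adjusted p = 0.162). The difference of Rbm3 exceeded that of every measured member of this list, the highest being 0.18 for Rbm11. Rbm3 was chosen by its height in this contrast, so nothing is read from that. Cold shock domain proteins bind nucleic acid through another fold than the RNA recognition motif. Of 8, 7 were measured, from -0.066 for Ybx1 to 0.078 for Carhsp1, with a median of 0.014 and 0 called. The smallest p-values were those of Ybx1 (SE 0.030, limma adjusted p = 0.395) and Lin28b at 0.074 (SE 0.037, limma adjusted p = 0.441).

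None of the heat shock genes driven by HSF1 was called. Of 19, 17 were measured, with a median of -0.0054, 7 above and 10 below 0, and 0 called. Hspb1, a small heat shock protein, was the farthest from 0 at -0.24 (SE 0.063, limma adjusted p = 0.130). It averaged -0.080 ± 0.074 on the mephedrone-treated arrays and 0.16 ± 0.20 on the others (SD, n = 6 each), with overlap. Dnaja1, a co-chaperone with the next smallest p, had -0.035 (SE 0.030), Hspa1a, the inducible HSP70, -0.042 (SE 0.054) and Hsph1, another HSF1 target, -0.0023 (SE 0.031).

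Of the 6 pathway lists, that of circadian clock genes had calls. Of 19, 18 were measured. Ciart (0.74), Per3 (0.31) and Dbp (0.31) were called higher and Arntl, which encodes BMAL1, lower (-0.46), all with limma adjusted p between 0.000989 and 0.0299. Thus 4 of 18 were called against 0.115% of all genes. The list was chosen with earlier results of these data known, so this count is a description and no separate evidence. The list median was 0.12. Only Ciart and Arntl were called when saline replicate 1, ethanol replicate 2, combination replicate 1 or 2, or any 1 of the mephedrone arrays was left out. Among these values Rbm3, with 0.40, came after Ciart and Arntl in size, and Cirbp, with 0.27, came after Dbp. Clock, whose transcript CIRBP binds, had -0.053 (SE 0.024) and Per2 had 0.11 (SE 0.089), and neither passed. Both were named after their values were seen.

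**Figure D4:**
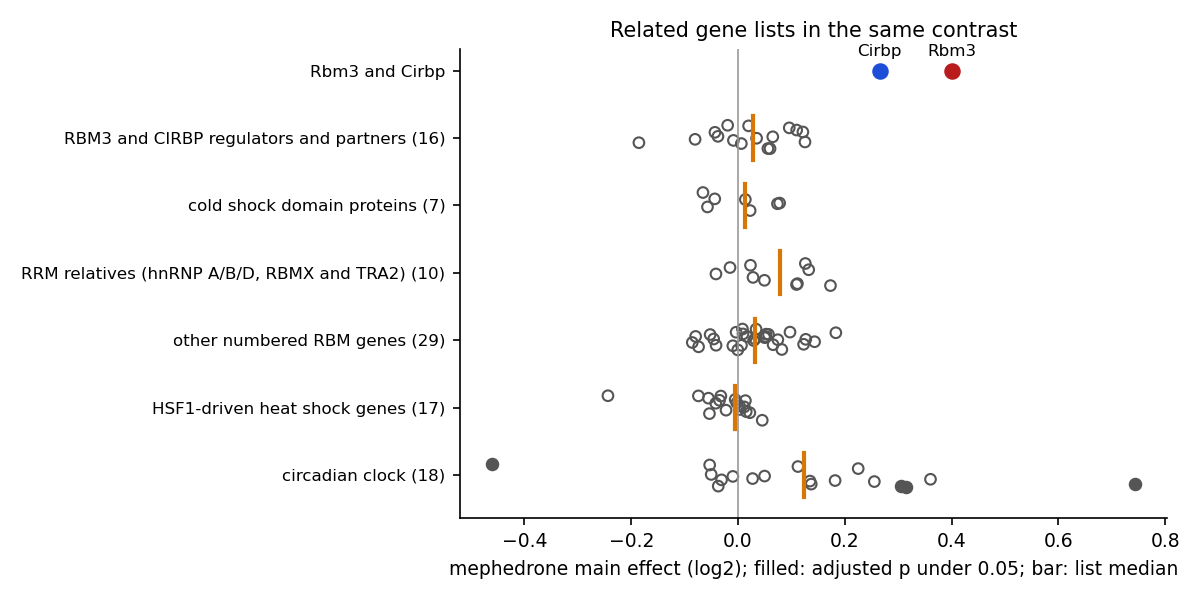
Log2 difference of all mephedrone arrays against all others for Rbm3, Cirbp and each measured member of 6 gene lists, with list sizes in brackets, filled points for an adjusted p under 0.05 and an orange bar for the list median. The 4 filled points are clock genes, and Rbm3, which was chosen by this contrast, lies beyond every member of the other 5 lists.

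Rbm3os, a transcript annotated on the opposite strand at the Rbm3 locus, was not separated by treatment. It stood at -0.030, 0.032 and 0.010 in the combination, -0.084, 0.12 and -0.010 with mephedrone, 0.20, -0.024 and 0.097 with ethanol and 0.083, -0.010 and -0.038 with saline. The 4 groups overlapped, and the difference between mephedrone-treated and other arrays was -0.044 (SE 0.045, limma adjusted p = 0.769). Its probe set had the rounding of numbers between 4 and 8, and it was singled out after its values were seen.

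The genes most like Rbm3 were sought by Pearson r over the 12 arrays among 17003 of the 19938 gene averages, leaving out unnamed transcripts, small RNAs and receptor families. These correlations describe the arrays and carry no test, since arrays of a group share their treatment. The highest were Pafah1b1 (0.97), which encodes the dynein regulator LIS1, the motor protein gene Myo5a (0.96), Dnajc10 (0.95) of the endoplasmic reticulum, Lmbrd2 (0.95), Copb2 (0.94) of the COPI coat and Vps26a (0.94) of the retromer. Without the 2 arrays farthest from the Rbm3 median their r was 0.90 to 0.96. The lowest were the ubiquitin ligase gene Rnf144a (-0.95), the Argonaute gene Ago4 (-0.94) and Tes (-0.94). The 6 most alike had mephedrone differences of 0.13 to 0.18, against 0.40 for Rbm3, in the contrast that had led to the choice of Rbm3. Cirbp was number 34 among the genes most like Rbm3, and number 1777 after removal of the group means.

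For Cirbp the highest were Ercc3 (0.94), a helicase of the transcription factor TFIIH, the proteasome gene Psma3 (0.94), Slc37a3 (0.93), Ift74 (0.93), Micu3 (0.93), a regulator of mitochondrial calcium uptake, and the translation helicase gene Eif4a2 (0.93). The lowest were Arc (-0.94) and Dusp1 (-0.92), which neurons induce upon activity, and Hoxb6 (-0.91). Among arrays of the same group the within-group r with Cirbp was -0.85 for Arc, -0.83 for Dusp1 and -0.90 for Hoxb6. These genes were picked by their r over the same arrays, which includes the within-group part. Their within-group values are therefore a description and no separate evidence. Rbm3 was number 10 among the genes most like Cirbp, and number 597 after removal of the group means. By within-group r alone the closest to Rbm3 were Tfrc (0.97), Lmbrd2 (0.95) and Atp5mpl (0.94), and the closest to Cirbp were Ube3c (0.97), Snx2 (0.93) and Faf1 (0.93).

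**Figure D5:**
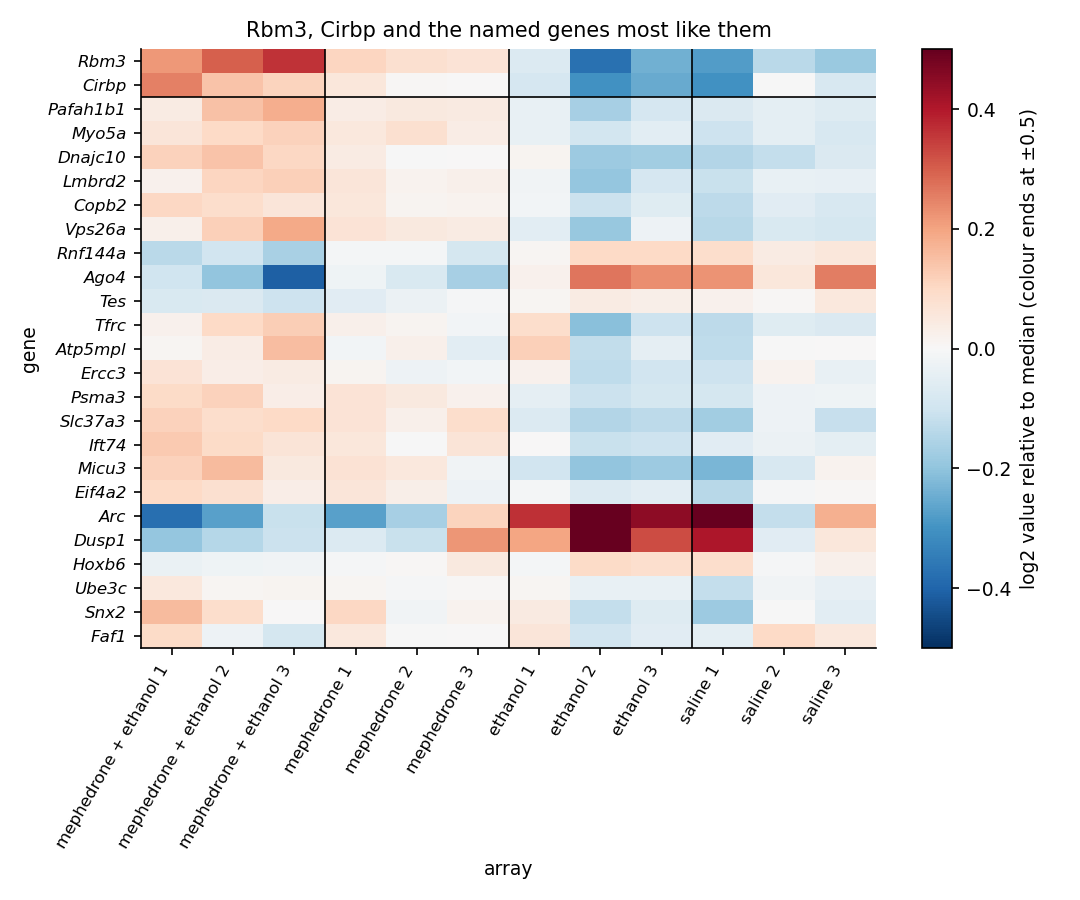
Log2 values relative to the median on the 12 arrays (columns, by treatment) for Rbm3, Cirbp and the named genes with the highest or lowest correlation with them (rows), with colours ending at ±0.5. Rbm3 is red on the 6 mephedrone-treated arrays, Cirbp is red on the 3 combination arrays and near the neutral colour on mephedrone replicates 2 and 3, and Arc and Dusp1 are blue on the 3 combination arrays and red on the 3 ethanol arrays.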

How the data were processed

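RNA was measured on 12 arrays. Per the submitters' processing notes the values were made with RMA (background correction, quantile normalisation and probe summary) and the genome build mm8, and GeneSpring GX 7.3.1 is named in the design text. The deposited log2 values are centred on each probe set's median over the arrays, a step read from the table (largest row median 7.02e-07). The log2 scale and the bracket of the level were also read from the values, whose rounding matched single-precision steps within 0.05 of a step. No new normalisation was applied, there were 0 pairs of identical arrays, and precision is limited by how many arrays there are.

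Probe sets with 1 symbol (21789 of 28853) were averaged per gene. Group means were fitted with limma 3.58.1 in R 4.3.3 (lmFit, eBayes, 8 residual and 3.43 prior degrees of freedom), with two-sided p-values adjusted by Benjamini and Hochberg over 19938 genes. A main effect compares 6 with 6 arrays. Named were both genes, called members of each list or else the 2 with the smallest p, and the 6 highest, 3 lowest and 3 highest within-group correlations; other list members are named for their role, after their values were seen. Members and lists were chosen with earlier results of these data known. Alternatives were normalisation, probe summary, array weights, robust fitting, a replicate block, marker covariates and left-out arrays. The fit was tested on simulated data. Same-numbered arrays of different groups did not deviate together (18 pairs, r from -0.28 to 0.43), so the numbers were not taken as pairs.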

Additional observations from a re-analysis of the deposited data

How the results depend on the processing

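Over the alternatives run, the mephedrone difference of Rbm3 ranged from 0.36 to 0.44 and that of Cirbp from 0.22 to 0.31. When arrays were left out in turn, the ranges were 0.36 to 0.44 and 0.22 to 0.30. With a replicate block, the mephedrone difference was 0.40 for Rbm3 and 0.27 for Cirbp, the block changed no member call, and the samples share only a number. No member difference moved by its within-group SD or more. With arrays left out in turn the ethanol difference of Rbm3 ranged from 0.050 to 0.13 and did not pass. That of Cirbp ranged from -0.013 to 0.062, where leaving out ethanol replicate 1 gave -0.0016 and leaving out saline replicate 1 gave -0.013, and the cause was not tested. The within-group correlation ranged from 0.37 to 0.83 with arrays left out in turn. It reached the threshold only without combination replicate 1 (0.83), an array that runs against it, and nothing is read from that. Among list counts, array quality weights gave 1 regulator (Sp1, higher), 1 other RBM gene (Rbm8a, higher) and 8 clock genes, against 0, 0 and 4. Without both ethanol replicate 1 and combination replicate 3, 1 heat shock gene (Cryab, lower) and 6 clock genes were called. The clock count was 2 with a replicate block and 2 to 5 with arrays left out in turn. It was 2 without saline replicate 1, ethanol replicate 2, combination replicate 1 or 2, or any 1 mephedrone array, and Ciart and Arntl kept their calls in each setting. The cause was not tested. Signal over background could not be read from centred values.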
